A study of Mus musculus with 30 samples.

Results

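The data described here are those of cultured extraocular muscle, the group of muscles that move the eye, at 4 h against 0 h. The members were chosen by title: the arrays titled 4 hour EOM and those titled 0 hour EOM. They came to 12 of the 30 arrays in the series, with 3 arrays per time on each of a pair of Affymetrix array types, A and B. The whole series measured total RNA from mouse cultures of this muscle at 0, 4, 12, 24 and 48 h, with 15 arrays of each type. For both the 4 h and the 0 h group the labels give a time and a tissue, and no agent, strain or age. What happened at 0 h, whether the 3 replicates of a time were different dishes, and whether an A and a B array of the same number carried RNA of one dish are not given in the labels. The p-values below therefore cover the spread among arrays alone, and part of that spread may be technical.

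A culture of skeletal muscle holds myoblasts, which divide, and myotubes, which form when myoblasts leave the cell cycle and fuse. When growth factors or stretch reach a cell, the ERK kinases and serum response factor switch on the immediate early genes within minutes, and feedback inhibitors made in the same wave then damp the receptor. Separate sensors read the chemistry of the medium: the aryl hydrocarbon receptor binds flat aromatic compounds and switches on cytochrome P450 genes, and NRF2 answers oxidants by switching on glutathione synthesis.

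Each array had been scaled to a common 2%-trimmed mean intensity of 499.9, so every value is relative to its own array. Tests were run on log2 of intensity plus 16 with limma, on 13577 A array probe sets (7883 named genes) and 13507 B array probe sets (6749 named genes). Pairwise correlations across probe sets lay between 0.968 and 0.985 among the 4 h A arrays and between 0.960 and 0.974 among the 0 h A arrays. On the B type they lay between 0.875 and 0.887 at 4 h and between 0.844 and 0.870 at 0 h. Log2 changes had a median SE of 0.179 for A probe sets and 0.266 for B probe sets, and the 3 arrays per group limit this precision. Replicate 1 of the B type at 0 h is titled extraocular muscle and carries leg muscle as its source name. It was kept under its title, and its mean correlation with the other 0 h B arrays was 0.865, against 0.852 and 0.857 for replicates 2 and 3. Among limb and trunk position genes at 0 h, it had 393 in Hoxa10 against 189 and 214 in replicates 2 and 3. Hoxc10 and Hoxd13 were also highest in it, at 119.5 and 73.5. Tbx4 was lowest in it, at 168 against 203 and 183. Hoxc10 and Tbx4 did not pass the filter on low intensity. The part of this source name in the results was not tested.

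The muscle label held against its markers. All 10 muscle markers were measured on the A arrays, and Myog, the transcription factor of differentiating myoblasts, had 12921, 6219 and 11587 at 4 h and 11259, 13594 and 7231 at 0 h. Myod1, which commits cells to the muscle lineage, had 8044, 5026 and 7131 at 4 h and 8555, 8526 and 5251 at 0 h. Markers of other cell types were mixed on the A arrays. Some that define a type were near the bottom of the scale: Pecam1 of endothelium had 15.6 to 22.8 at 4 h and 18.2 to 49.9 at 0 h, Ptprc of leukocytes 3.80 to 22.3 and 7.90 to 39.7, Myh11 of smooth muscle 4.00 to 18.1 and 3.10 to 24.7, and Adipoq of fat cells 1.5 to 12.1 and 4.1 to 23.6. Others of the same lists passed the filter on low intensity: 2 of 11 fibroblast markers on the A type, 3 of 11 endothelial, 3 of 13 immune, 4 of 6 Schwann cell, 7 of 10 smooth muscle and pericyte, and 2 of 7 adipocyte markers. The brightest were Acta2, a smooth muscle actin, averaging 12034 at 4 h and 14160 at 0 h, Col3a1, a collagen, with 2804 and 2449, and Pmp22, a myelin protein, with 1866 and 1519. Tagln of smooth muscle averaged 925.4 at 4 h and 1113 at 0 h, and Pdgfrb of pericytes 545.6 and 414.5. Cd14 of the immune list averaged 225.3 and 184.0, and Csf1r, a macrophage receptor, 123.6 and 212.0. Tcf4, counted in the fibroblast list, averaged 1325 and 991.9 and is not taken as specific to fibroblasts. Dcn and Pdgfra of the fibroblast list also passed on the B type, Dcn with 83.6 to 355.9 at 4 h and 297.6 to 401.7 at 0 h.

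Among regulators of head muscle, Pitx3 averaged 632.9 at 4 h and 600.0 at 0 h, Pitx1 322.4 and 242.6, and Isl1 128.4 and 106.1 on the A arrays. Tcf21 averaged 757.3 and 869.1 on the B arrays, while Tbx1 did not pass the filter, with 53.8 to 80.6 at 4 h and 51.2 to 143.7 at 0 h.

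The summed intensity of the marker lists on the A arrays overlapped between the times for muscle (60246 to 92537 at 4 h, 70716 to 86684 at 0 h), endothelium (620.8 to 700.4 and 535.7 to 808.1), immune cells (609.7 to 793.9 and 771.2 to 1040), Schwann cells (2626 to 3985 and 2281 to 3403), smooth muscle (11398 to 16951 and 12709 to 19181) and adipocytes (454.6 to 486.3 and 299.5 to 467.2). It did not overlap for the fibroblast list, with 4490 to 4647 at 4 h and 3748 to 4229 at 0 h on the A arrays, but did on the B arrays (382.4 to 708.5 and 354.2 to 764.0). The A sum was mostly Col3a1 and Tcf4, and Tcf4 is not taken as specific to fibroblasts. The other A markers of that list averaged 13.6 (Dcn) to 82.7 (Mfap5) at 4 h, so the sum says little about fibroblasts. The smooth muscle sum was likewise mostly Acta2. Like Myog, Acta2 was lowest in replicate 2 at 4 h (8523) and in replicate 3 at 0 h (9474). The single endothelial probe set of the B type, of Flt1, did not pass the filter. It was at 70.6 to 132.4 at 4 h and 151.9 to 434.4 at 0 h. The A probe set of Flt1 passed the filter and went the other way, averaging 142.2 at 4 h and 106.6 at 0 h. Neurofilament and neuronal cytoskeleton genes summed to 1525 to 1874 at 4 h and 1967 to 2469 at 0 h on the B arrays, without overlap, and to 3281 to 4106 and 3536 to 4628 on the A arrays. Among them Nefl, the light neurofilament chain, had 170, 167 and 188 at 4 h against 325, 261 and 309 at 0 h on the A type. Its B probe set had 1152, 1223 and 924 at 4 h against 1663, 1272 and 1654 at 0 h. Nefm, the medium chain, had 175, 196 and 165 at 4 h against 304, 264 and 251 at 0 h, and neither gene passed the threshold. The signal ratio of 3' to 5' probe sets for Actb, a sign of RNA integrity, was 1.051 to 1.094 at 4 h and 0.975 to 1.047 at 0 h on the B arrays, without overlap. The A arrays overlapped in it, at 1.09 to 1.12 and 1.01 to 1.14. For Gapdh it overlapped on both types, at 0.803 to 0.887 and 0.785 to 0.845 on A and 0.770 to 0.809 and 0.787 to 0.820 on B. The part of these cell types and ratios in the results was not tested.

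A pair of A arrays, replicate 2 at 4 h and replicate 3 at 0 h, stood apart from the others of their times in the same way. They had the lowest Myog, and the median deviation of the muscle markers from the 6-array mean was -0.41 and -0.19 on the log2 scale, against 0.07 to 0.24 on the other 4 arrays. They also had the highest median deviation of mitosis genes, 0.32 and 0.13. Across probe sets their deviations from their group means correlated at 0.467, the highest of the 9 pairs of a 4 h with a 0 h array. On the B arrays, too, replicate 2 at 4 h and replicate 3 at 0 h correlated highest of the 9 pairs, at 0.157. Values without both A arrays stand beside the results that rest on them.

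In the A arrays, 4 of 13577 probe sets passed an adjusted p of 0.05 at 4 h against 0 h (0.0295%), and all 4 were lower at 4 h. They belonged to Errfi1, Fos and Ier2, genes that growth factor signalling switches on. No probe set passed as higher. At an unadjusted p under 0.05, 441 were higher at 4 h and 376 lower. In these bulk samples, fewer cells of a type and less RNA per cell cannot be told apart.

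Errfi1 encodes a protein that binds the kinase domain of the EGF receptor and switches it off. Its brighter probe set had intensities of 648, 873 and 696 in the 4 h arrays and 2965, 1735 and 2187 in the 0 h arrays. The groups did not overlap, and the 0 h arrays were further from each other than the 4 h arrays were. The log2 change was -1.59 ± 0.23 (SE, limma adjusted p = 0.0276). A dimmer probe set of Errfi1 gave 329, 497 and 333 at 4 h against 1650, 793 and 1338 at 0 h, a log2 change of -1.63 ± 0.26 (limma adjusted p = 0.0311).

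The annotation places Errfi1 on mouse chromosome 4 with a pair of start sites. The promoter window of one of them, 250 bases before to 50 after the start, at chr4:150854820-150855119 on the plus strand of GRCm38.p6 (RefSeq), is shown because it carries the palindrome TGACGTCA, given in capitals. It holds the cyclic AMP response half-site TGACG on each strand, beginning 51 and 48 bases before the start. The other window, at chr4:150853546-150853845, has no TGACG.

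Errfi1: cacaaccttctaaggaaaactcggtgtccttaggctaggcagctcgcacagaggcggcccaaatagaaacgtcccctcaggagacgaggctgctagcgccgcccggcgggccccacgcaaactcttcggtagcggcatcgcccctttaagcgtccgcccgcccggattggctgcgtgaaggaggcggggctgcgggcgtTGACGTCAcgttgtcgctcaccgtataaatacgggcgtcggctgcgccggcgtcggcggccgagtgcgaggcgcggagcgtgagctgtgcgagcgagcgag

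Fos is one of the subunits of the AP-1 transcription factor and the best known immediate early gene. Its intensities were 165, 117 and 164 in the 4 h arrays and 511, 314 and 464 in the 0 h arrays, without overlap. The log2 change was -1.43 ± 0.22 (limma adjusted p = 0.0311). The promoter of Fos, at chr12:85473640-85473939 on the plus strand of GRCm38.p6 (RefSeq), is printed with TGACG in capitals, found at 129 and 66 bases before the start. Of 32851 promoter windows of this length, 20.8% hold TGACG on either strand, so the match describes these windows and sets no gene apart.

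Fos: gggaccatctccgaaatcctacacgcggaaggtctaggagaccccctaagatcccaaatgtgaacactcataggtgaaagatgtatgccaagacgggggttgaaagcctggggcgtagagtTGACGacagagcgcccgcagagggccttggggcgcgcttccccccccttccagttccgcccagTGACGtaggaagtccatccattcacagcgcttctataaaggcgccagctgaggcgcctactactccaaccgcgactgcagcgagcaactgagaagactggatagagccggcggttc

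Ier2, a nuclear protein made in the same early wave, had 801, 998 and 1042 at 4 h and 1898, 1572 and 2182 at 0 h. Each 4 h array lay below each 0 h array, and the log2 change was -0.98 ± 0.16 (limma adjusted p = 0.0311). Without the pair of arrays low in Myog, an alternative chosen after the data were seen, no probe set passed in limma, while 827 had an unadjusted p under 0.05. The log2 changes were then -1.73 for the brighter Errfi1 probe set (adjusted p = 0.0945 in limma), -1.21 for Fos (adjusted p = 0.489 in limma) and -0.91 for Ier2 (adjusted p = 0.303 in limma).

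The list of immediate early transcription factors, which includes Fos and Ier2, mostly had lower values at 4 h, and the 2 that passed were these. Of 25 measured members on the A arrays, 6 had a positive log2 change, with a median of -0.24. Over all 7883 genes, 51.0% were positive (51.8% of all probe sets) and the median was 0.0046. Of these genes, with 1 probe set each as in the lists, 3.12% were lower and 3.1% higher at an unadjusted p under 0.05. At an unadjusted p under 0.05, 9 of the 25 were lower and none higher, against 2.77% and 3.25% of all probe sets. Here and below, the gene lists were drawn up with earlier results of these data known, so such shares describe the lists and test nothing. The per-array median of the list lay between -0.24 and -0.09 at 4 h and between 0.06 and 0.23 at 0 h. Such medians were taken for every list with enough measured members. On the A type 6 lists lay apart with 4 h higher, 7 with 4 h lower, and 26 overlapped. Junb, an AP-1 subunit, had 419, 564 and 410 at 4 h against 869, 743 and 802 at 0 h (log2 change -0.79 ± 0.14, limma adjusted p = 0.0784). Egr1, a zinc finger factor, had 3936, 2749 and 3297 against 8567, 5803 and 6612 (-1.06 ± 0.20, limma adjusted p = 0.0905). In these and in Nr4a1, an orphan nuclear receptor with 205 to 233 at 4 h and 333 to 372 at 0 h, the groups did not overlap, but the differences did not pass. Not every probe set of such genes shared the pattern: of the Egr2 probe sets on the A type, the brighter had a log2 change of -0.996 and the dimmer of -0.43, and neither passed.

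The list was not uniform: log2 changes on the A arrays ran from -1.43 to 0.38. Some members were dim, overlapped between the times or differed by less. Atf3, which stress and growth signals both induce, was dim in all 6 arrays, with 14.3, 39.9 and 62.1 at 4 h and 18, 8 and 57.2 at 0 h. The brighter probe set of Jun, another AP-1 subunit, differed by -0.355 ± 0.11 without passing. Btg2, an antiproliferative member, had 518, 417 and 803 at 4 h against 731, 601 and 656 at 0 h.

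**Figure D1:**
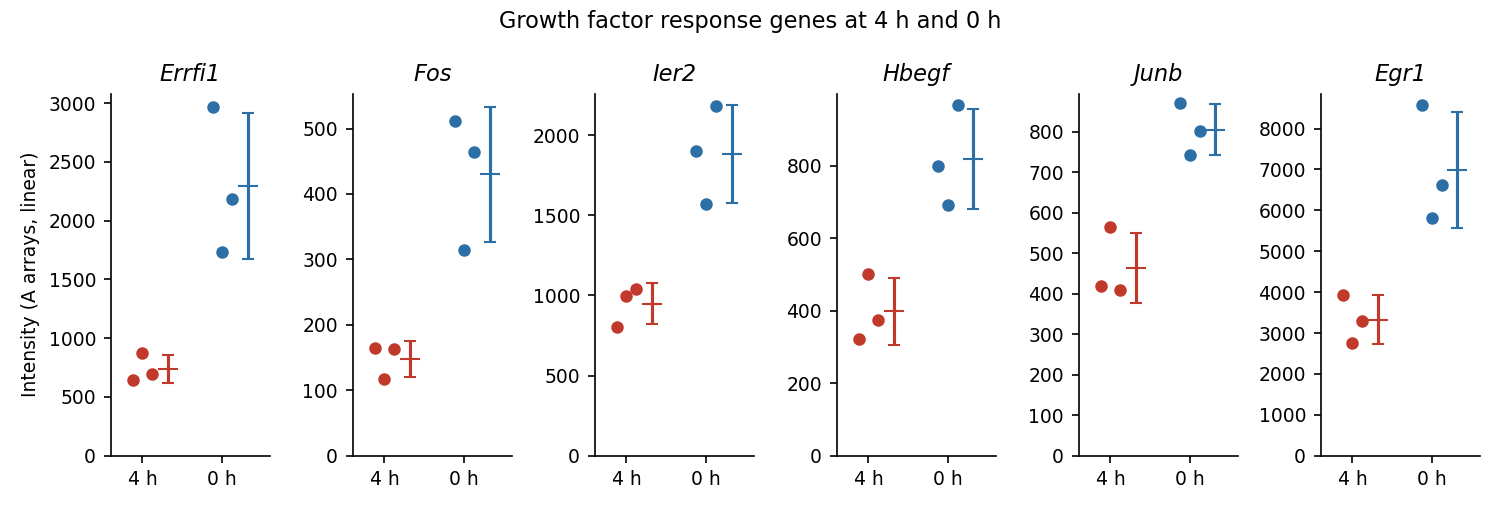
Linear intensity on the A arrays of 6 growth factor response genes in the 3 arrays at 4 h (red, left) and the 3 at 0 h (blue, right). Points are arrays, and the bar beside them gives the mean with its SD. In each panel the 3 arrays at 4 h lie below the 3 at 0 h, and Errfi1, Fos and Ier2 passed limma's adjusted threshold.

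Ligands upstream of the EGF receptor were measured too. Hbegf, a membrane-bound ligand of the receptor that can be shed, had 321, 500 and 373 at 4 h against 800, 691 and 966 at 0 h (log2 change -1.02 ± 0.18, limma adjusted p = 0.0784). Its other probe set had 174 to 230 and 261 to 332, a change of -0.47 ± 0.18. Ereg, epiregulin, had 121 to 165 at 4 h and 218 to 285 at 0 h (-0.69 ± 0.19, limma adjusted p = 0.617). The receptors themselves had changes of other signs and sizes, 0.07 ± 0.22 for Egfr, 0.29 ± 0.17 for Erbb2 and 0.26 ± 0.33 for Erbb3, and none passed. Erbb3 was lowest in the same pair of arrays that were low in Myog, at 643 in 4 h replicate 2 and 623 in 0 h replicate 3, against 1109 to 1502 in the others.

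Besides Errfi1, inhibitors that feed back on growth factor receptors and ERK include the dual-specificity phosphatases, which remove phosphate from ERK, and the Sprouty proteins. Of 17 measured on the A arrays, 6 were positive and the median log2 change was -0.19. On the B arrays 2 of 7 were positive, against 50% of all B probe sets, and the median was -0.46. Per-array medians of the list did not overlap between the times on either type, and Errfi1 alone passed. On the B type 1 list lay apart with 4 h higher, 1 with 4 h lower, and 16 overlapped. Dusp4, on the B type, had 2774, 3533 and 2287 at 4 h and 4387, 3845 and 3970 at 0 h (log2 change -0.52 ± 0.16, limma adjusted p = 0.860). Dusp6 overlapped, with 443, 828 and 432 at 4 h against 910, 686 and 1654 at 0 h, and Dusp1 differed by -0.23 ± 0.16.

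Targets of serum response factor and its cofactor MRTF, which reads the state of the actin cytoskeleton, had 3 of 17 positive changes on the A arrays and a median of -0.14, which was -0.0739 after quantile normalization. Of 3 on the B type 2 were positive, with a median of 0.35. None passed. Ccn2, a matricellular protein, had 450, 565 and 557 at 4 h and 826, 980 and 1268 at 0 h, and its log2 change of -0.93 ± 0.27 had an adjusted p of 0.617 in limma. Ankrd1, a stretch-responsive muscle protein, overlapped between the times, with 1621 to 3473 at 4 h and 3082 to 4486 at 0 h.

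The second comparison asked whether the 4 h level stood off from the midpoint of its neighbours, the average of the 0 h and 12 h means on the log2 scale. It shares the 4 h and 0 h arrays with the first, so the values are only set side by side. A level that fell by 12 h can stand above the midpoint without a rise from 0 h, and the reverse holds below it. On the A arrays 14 of 13577 probe sets passed (0.103%), 6 higher at 4 h (0.0442%) and 8 lower (0.0589%). Those higher came from the aryl hydrocarbon receptor list, glutathione synthesis and Cirbp. On the B arrays 0 of 13507 passed in limma (0%), with 764 at an unadjusted p under 0.05 (5.66%).

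Cyp1a1, a cytochrome P450 and the standard readout of the aryl hydrocarbon receptor, had 1494, 1362 and 1251 at 4 h, against 769, 860 and 731 at 0 h and a mean of 293 at 12 h. Each 4 h array was above each 0 h array, and the mean was 77.4 at 24 h and 49.7 at 48 h. Against the midpoint of 0 h and 12 h, the log2 change was 1.51 ± 0.19 (limma adjusted p = 0.00632). Against 0 h alone it was 0.79 ± 0.22, which did not pass (limma adjusted p = 0.617). Cyp1b1, a related P450, had 1904, 1540 and 1796 at 4 h against 996, 1207 and 864 at 0 h, with a 12 h mean of 613. Its log2 change against the midpoint was 1.15 ± 0.15 (limma adjusted p = 0.00632), and 0.77 ± 0.18 against 0 h (limma adjusted p = 0.353). A dimmer Cyp1b1 probe set gave 414, 380 and 410 against 165, 184 and 254, and its change of 1.10 from the midpoint did not pass (limma adjusted p = 0.148).

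The promoters of both P450 genes are shown because each holds GCGTG, the core letters that the aryl hydrocarbon receptor and its partner bind, in capitals. Cyp1a1 lies at chr9:57697363-57697662 on the plus strand, with the match beginning 54 bases before the start. Cyp1b1 lies at chr17:79715012-79715311 on the minus strand, and its match, 76 bases before the start, is on the opposite strand and reads CACGC as printed. GCGTG occurs on either strand in 32.4% of the 32851 promoter windows (RefSeq, GRCm38.p6), so these matches are a description.

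Cyp1a1: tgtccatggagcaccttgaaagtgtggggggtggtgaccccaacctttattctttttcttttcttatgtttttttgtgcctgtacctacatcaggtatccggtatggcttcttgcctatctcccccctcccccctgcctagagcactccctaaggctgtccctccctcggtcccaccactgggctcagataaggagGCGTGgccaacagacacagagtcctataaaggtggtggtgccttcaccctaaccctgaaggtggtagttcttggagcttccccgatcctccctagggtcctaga

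Cyp1b1: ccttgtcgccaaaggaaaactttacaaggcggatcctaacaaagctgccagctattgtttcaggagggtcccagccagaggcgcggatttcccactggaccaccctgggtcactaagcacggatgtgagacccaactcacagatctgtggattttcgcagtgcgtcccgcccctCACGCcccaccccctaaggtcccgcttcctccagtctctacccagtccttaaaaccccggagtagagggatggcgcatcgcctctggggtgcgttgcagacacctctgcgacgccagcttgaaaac

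Of 8 measured members of the aryl hydrocarbon receptor list on the A arrays, 7 were positive against 0 h (median log2 change 0.37) and 7 against the midpoint (median 0.49), where 50% of all probe sets were. At an unadjusted p under 0.05, 2 were higher against 0 h (3.25% of all probe sets) and 6 against the midpoint, where 4.38% of all probe sets were. With 1 probe set per gene, 47.2% of all genes were positive against the midpoint and 4.01% were higher at that p. Ahrr, the receptor's repressor and itself a target, had 216, 303 and 313 at 4 h, 228, 200 and 158 at 0 h, and means of 104 at 12 h and 57.6 at 24 h. Tiparp, an ADP-ribosyl transferase that also represses the receptor, had 1228 to 1388 at 4 h and 1063 to 1208 at 0 h, without overlap, and a 12 h mean of 813. Those are values of its brightest probe set, and its other probe sets overlapped. The receptor gene Ahr overlapped, with 1253, 1658 and 1340 at 4 h and 1364, 1423 and 1155 at 0 h. Its 12 h mean was 797, and its log2 change was 0.10 against 0 h and 0.46 against the midpoint. Without the pair of arrays low in Myog, Cyp1a1 was 1.48 and Cyp1b1 1.18 above the midpoint, each with an adjusted p of 0.0554 in limma. The median of the list against 0 h was then 0.25. Nqo1 is counted both in this list and in the NRF2 list below.

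Both subunits of glutamate-cysteine ligase, the rate-limiting enzyme of glutathione synthesis, stood above the midpoint. Gclm, the modifier subunit, had 1814, 1490 and 1879 at 4 h, against 1451, 1146 and 1222 at 0 h and a 12 h mean of 739. All 4 h arrays exceeded all 0 h arrays, and the log2 change against the midpoint was 0.82 ± 0.13 (limma adjusted p = 0.0266). A B array probe set of Gclm had 1773, 1167 and 1464 at 4 h and 1170, 1058 and 977 at 0 h, and its change of 0.87 ± 0.19 did not pass (limma adjusted p = 0.544). Gclc, the catalytic subunit, had 2217, 2103 and 2117 at 4 h against 1931, 1384 and 1549 at 0 h, with a 12 h mean of 925. It passed in its brighter probe set (0.82 ± 0.15, limma adjusted p = 0.0392) and in its dimmer one (0.83 ± 0.14, limma adjusted p = 0.0391). Against 0 h alone the changes were 0.44 for Gclm and 0.41 and 0.58 for Gclc, none past the threshold.

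The Gclm promoter, at chr3:122245307-122245606 on the plus strand of GRCm38.p6, holds the antioxidant response core TGACNNNGC once, on the opposite strand, printed in capitals as its reverse complement GCACCGTCA. The run begins 134 bases before the start and also contains TGACG on that strand. TGACNNNGC occurs in 12.4% of all promoter windows on either strand.

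Gclm: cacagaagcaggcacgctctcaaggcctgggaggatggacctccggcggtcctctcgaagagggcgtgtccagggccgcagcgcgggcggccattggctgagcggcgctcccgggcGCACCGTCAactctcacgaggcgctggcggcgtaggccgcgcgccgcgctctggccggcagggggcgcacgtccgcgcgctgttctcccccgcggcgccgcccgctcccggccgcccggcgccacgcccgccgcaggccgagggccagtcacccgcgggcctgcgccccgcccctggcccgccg

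Of 15 measured NRF2 and antioxidant genes on the A arrays, 12 were positive against 0 h (median 0.22), 5 of them at an unadjusted p under 0.05 (3.25% of all probe sets) and none lower. Against the midpoint 15 of 15 were positive (median 0.39) and 11 had an unadjusted p under 0.05 (4.38% of all probe sets), while only Gclc and Gclm passed the adjusted threshold. Counts against the midpoint include genes that were not higher than at 0 h and fell by 12 h. Gsta4 averaged 1495 at 4 h, 1500 at 0 h and 875 at 12 h, and Gsr 898, 958 and 699. Hmox1, heme oxygenase, had 1084, 779 and 864 at 4 h and 786, 393 and 377 at 0 h, where 0 h replicate 1 overlapped with the 4 h arrays. The brightest probe set of Srxn1, sulfiredoxin, had 1082, 1123 and 985 at 4 h against 1017, 715 and 801 at 0 h, with a 12 h mean of 506. Txnrd1, thioredoxin reductase, had 5664 to 6269 and 4924 to 5480. Nfe2l2, the gene of NRF2 itself, had 2315, 2286 and 2410 at 4 h and 1786, 2049 and 2132 at 0 h, a log2 change of 0.23 ± 0.11 that did not pass.

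Cirbp, an RNA-binding protein induced by mild cold, had 989, 1014 and 890 at 4 h against 683, 515 and 497 at 0 h, and its means at 12, 24 and 48 h were 480, 430 and 464. The 4 h arrays were above all arrays of 0 h, and the log2 change against the midpoint was 0.90 ± 0.16 (limma adjusted p = 0.0391). Against 0 h it was 0.77 ± 0.18 (limma adjusted p = 0.412). After quantile normalization the change from the midpoint did not pass (limma adjusted p = 0.0558).

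Below the midpoint were both Errfi1 probe sets, Fos, Ier2, Hbegf, Creld2, Igfbp3 and Clasrp. For Hbegf the log2 change was -0.88 ± 0.16 (limma adjusted p = 0.0392), while the dimmer probe set was at -0.44 and missed the threshold. Creld2, an endoplasmic reticulum protein induced by misfolded proteins, had 486, 501 and 434 at 4 h against 700, 803 and 734 at 0 h and a 12 h mean of 798. Its change was -0.69 ± 0.12 (limma adjusted p = 0.0391). Igfbp3, which binds insulin-like growth factors, had 132, 109 and 72.0 at 4 h, 153, 204 and 236 at 0 h and a 12 h mean of 493, a change of -1.42 ± 0.25 from the midpoint (limma adjusted p = 0.0391), which did not pass after quantile normalization (limma adjusted p = 0.0553). The B array probe set of Igfbp3 had 1118 to 1362 at 4 h and 1045 to 1508 at 0 h, overlapping, and its -0.61 ± 0.13 did not pass (limma adjusted p = 0.544). Clasrp, a splicing-related protein, had 44.8, 26.2 and 212 at 4 h and 377, 275 and 330 at 0 h (-1.95 ± 0.35, limma adjusted p = 0.0392), with 4 h replicate 3 above the others of its time. Without the pair of arrays low in Myog, Gclm was at 0.91, Errfi1 at -1.375 and Hbegf at -0.99 from the midpoint, each with an adjusted p of 0.0554 in limma. The other called genes kept their sign there with adjusted p from 0.184 (Creld2) to 0.366 (Fos) in limma.

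**Figure D2:**
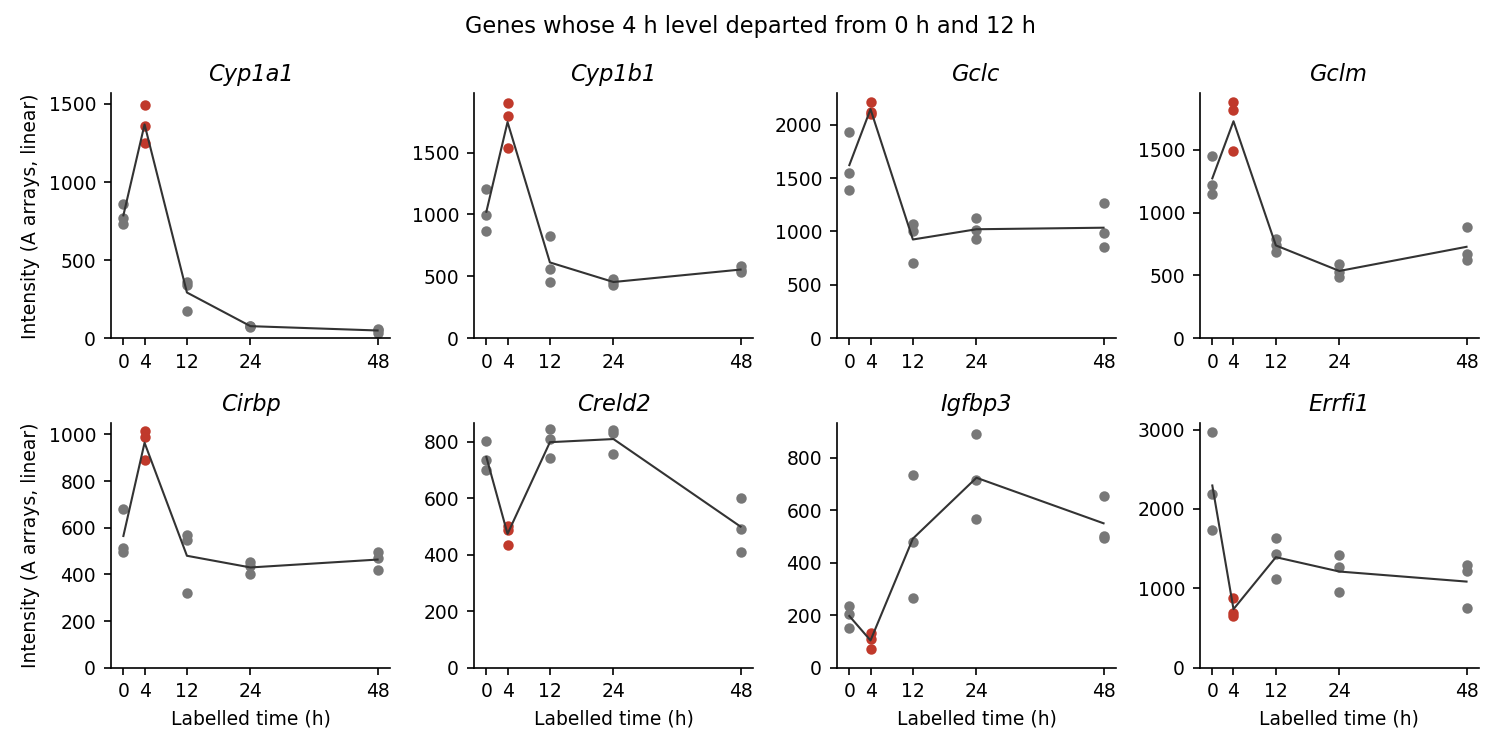
Linear intensity on the A arrays by labelled time in hours for 8 genes whose 4 h level passed against the midpoint of 0 h and 12 h. Points are arrays, with those of 4 h in red, and the line joins the means of 3 arrays. Cyp1a1, Cyp1b1, Gclc, Gclm and Cirbp are highest at 4 h, while Igfbp3, Errfi1 and Creld2 have their lowest mean at 4 h.

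Genes of cell division did not move as one group. Of 38 measured mitosis genes on the A arrays, 33 had a positive log2 change against 0 h, with a median of 0.24. On the B arrays 11 of 13 were positive, with a median of 0.23. None passed the threshold, and 6 of the 38 had an unadjusted p under 0.05, all higher, against 3.25% of all probe sets. Ckap2, a spindle protein, had 1420, 1769 and 1589 at 4 h against 963, 1118 and 1187 at 0 h (log2 change 0.54 ± 0.22, limma adjusted p = 0.782). Ndc80, of the kinetochore, had 378, 462 and 390 against 315, 290 and 313. Cdk1, the kinase that drives entry into mitosis, overlapped at 3540 to 4375 and 3868 to 4297. Of these mitosis genes, 10 had no overlap with 4 h higher and 1 with 4 h lower, where 6.12% and 6.05% of all probe sets did.

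Genes of DNA replication had the opposite balance. Of 37 measured, 6 were positive and the median was -0.21, with 10 lower and none higher at an unadjusted p under 0.05 (2.77% and 3.25% of all probe sets), and again none passed. Mcm10, which loads the replicative polymerase, had 361, 403 and 387 at 4 h against 570, 483 and 635 at 0 h (-0.53 ± 0.16, limma adjusted p = 0.617). Rpa2, which coats single-stranded DNA, had 492, 634 and 621 against 865, 845 and 746. Cdt1, which licenses origins, had 1937, 2613 and 1960 against 3092, 2692 and 3318. Mcm10 overlapped between the times in its B array probe set. The per-array medians of both lists overlapped on the A type: replicate 2 at 4 h was the highest of its time in mitosis (0.32) and in DNA replication (0.11), and replicate 3 was the highest at 0 h (0.13 and 0.24). Their part in the list medians was not tested. Without both arrays the list medians were 0.24 for mitosis and -0.24 for DNA replication.

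**Figure D3:**
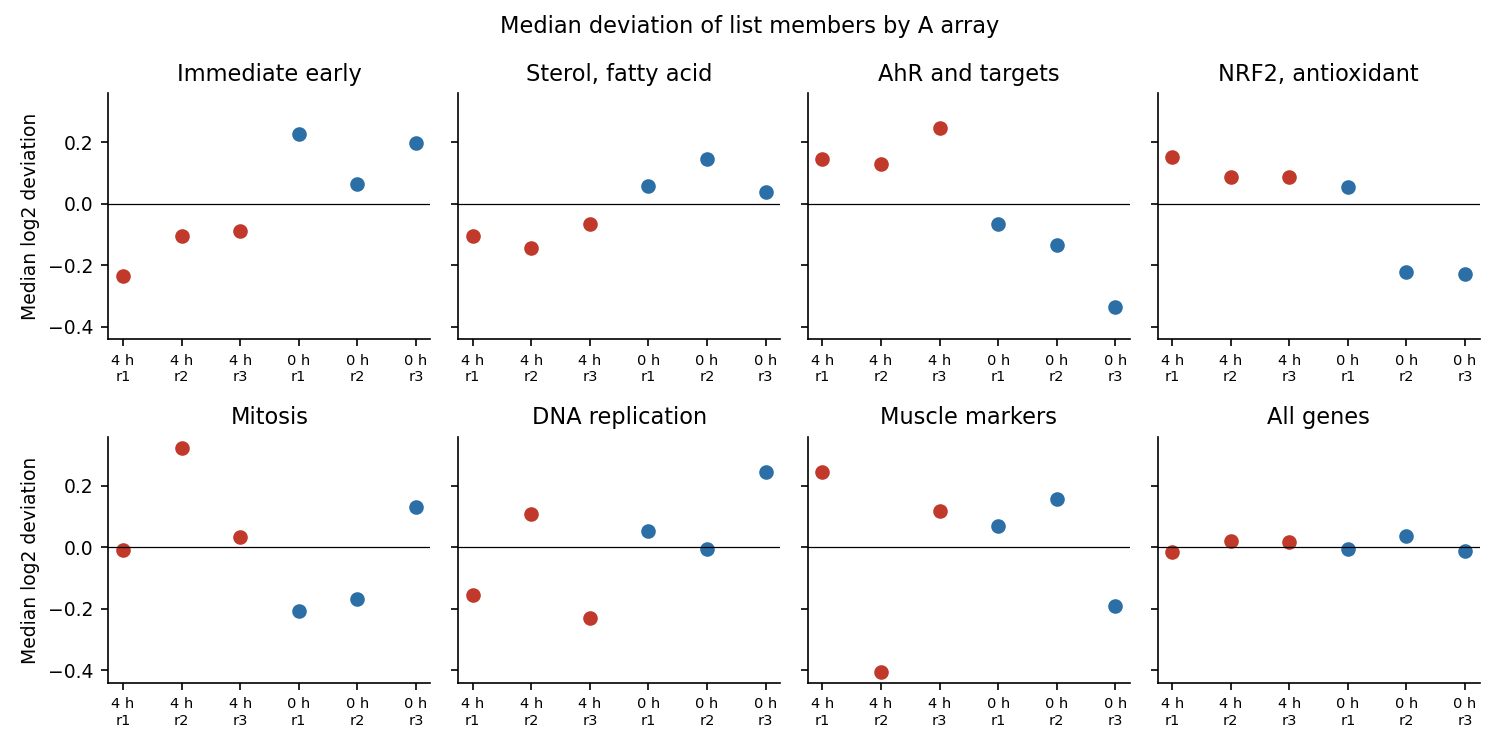
Median deviation of list members from the 6-array mean (log2) in each A array, the 3 at 4 h on the left in red and the 3 at 0 h on the right in blue, for 7 gene lists and for all genes. Immediate early and sterol genes lie lower and the aryl hydrocarbon receptor and NRF2 lists higher in the 4 h arrays without overlap. Over all lists with such A medians, 6 lay apart with 4 h higher, 7 with 4 h lower, and 26 overlapped. For mitosis, DNA replication and the muscle markers, replicate 2 at 4 h and replicate 3 at 0 h depart from the other arrays of their times.

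Enzymes of sterol and fatty acid synthesis, which SREBP proteins switch on when membranes run short of cholesterol, had 2 of 29 positive changes on the A arrays and a median of -0.17. None passed, and 7 had an unadjusted p under 0.05, all lower, where 2.77% of all probe sets were. The per-array medians did not overlap, as in 7 A lists with 4 h lower. Of 11 on the B type 4 were positive, and the median was -0.0677. Lss, which closes the sterol rings, had 502, 554 and 565 at 4 h and 742, 694 and 930 at 0 h, with a 12 h mean of 879 (log2 change -0.52 ± 0.18, limma adjusted p = 0.744). Sqle, the squalene epoxidase, had 2158, 2100 and 2028 against 2473, 2946 and 2705, and a 12 h mean of 3055. Insig1, which holds SREBP back and is its target, had 2351, 2175 and 2123 on the B arrays at 4 h and 3394, 2600 and 3021 at 0 h.

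Chaperones of the endoplasmic reticulum had 5 of 19 positive changes and a median of -0.16. Manf, a secreted stress protein, had 2500, 2721 and 2742 at 4 h and 4112, 3850 and 3240 at 0 h. Sdf2l1, a cochaperone, had 261, 241 and 316 against 343, 468 and 422. Hspa5, the master chaperone BiP, had 10410, 8543 and 8896 against 12827, 11159 and 10811 on the A arrays, but on the B arrays it overlapped, with 8248 to 8854 and 8360 to 9731. Genes under ATF4 and CHOP, the other arm of the stress response, had 19 of 23 positive changes and a median of 0.23, with 6 higher and none lower at an unadjusted p under 0.05 (3.25% and 2.77% of all probe sets). Aldh18a1, which makes proline, had 1558, 1830 and 1347 at 4 h against 1084, 908 and 1167 at 0 h, while Asns overlapped at 3422 to 3701 and 2747 to 4235. Without the pair of arrays low in Myog the median of this list was 0.042, and that of the chaperones -0.12. Among cytosolic heat shock genes, Hsph1, a large chaperone of the HSP110 family, had 2525, 1888 and 2272 against 3332, 3462 and 3276 (log2 change -0.60 ± 0.11, limma adjusted p = 0.0905), and the list's median was -0.05.

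Ribosome biogenesis genes had 7 of 35 positive changes and a median of -0.20. Mybbp1a, a nucleolar protein, had 1883, 2287 and 2111 at 4 h against 2459, 2754 and 2704 at 0 h, and Nip7, of the large subunit pathway, had 890, 978 and 784 against 1215, 1000 and 1220. Cytosolic ribosomal proteins had 5 of 30 positive and a median of -0.14. That last value moved with overall brightness: of 177 A probe sets with a mean intensity of 10000 or more, 164 were lower at 4 h, with a median of -0.14. After quantile normalization 91 of the 177 were lower with a median of -0.0021, and the median of the ribosomal proteins became 4.6e-04. Under the same normalization the median of ribosome biogenesis was -0.19, and those of oxidative phosphorylation and the proteasome were 0.0026 and -0.04, against -0.08 for each before it.

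**Figure D4:**
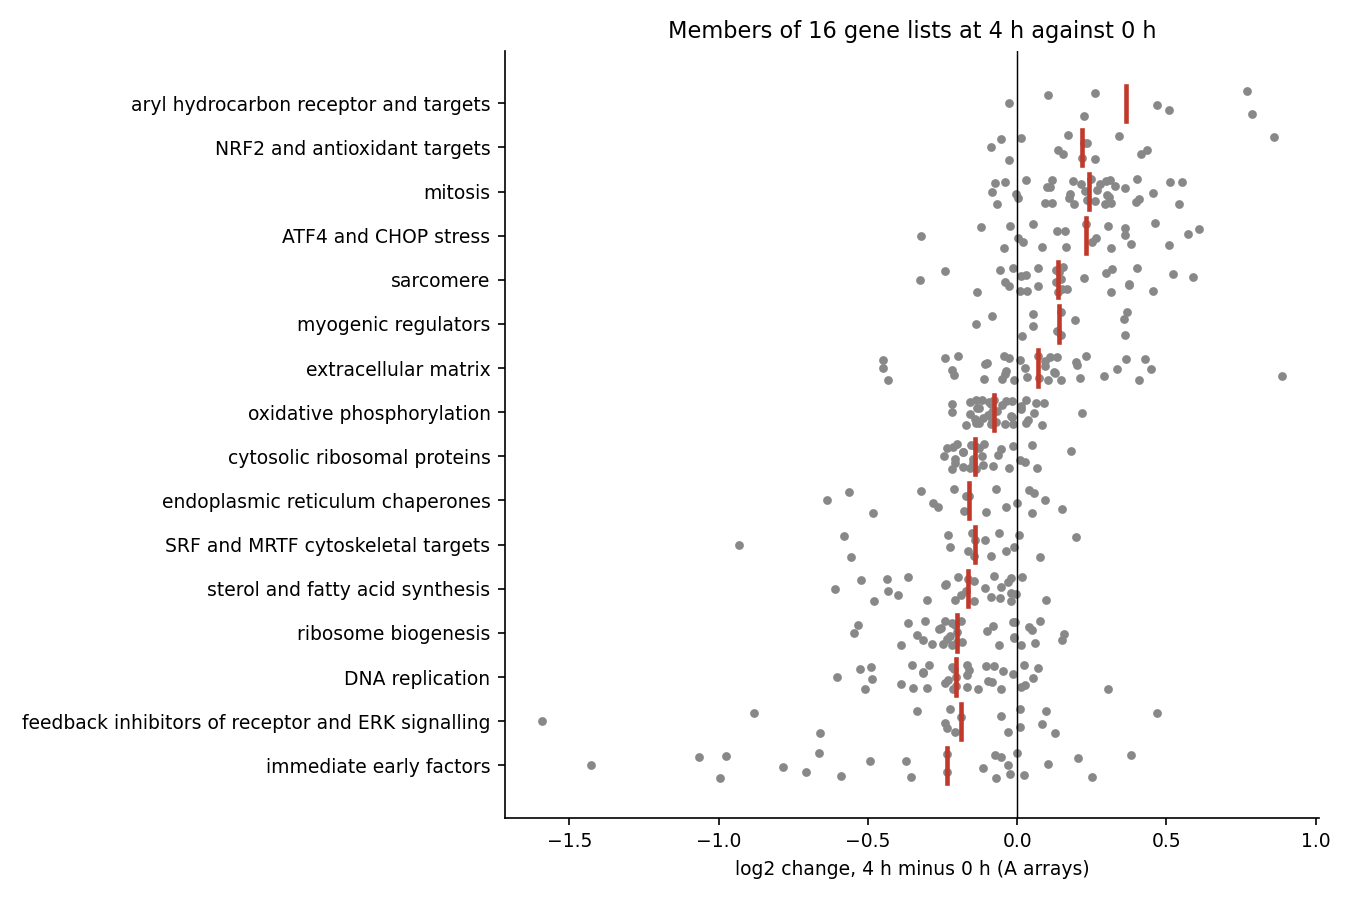
Log2 change at 4 h minus 0 h on the A arrays for each measured member (grey point) of 16 gene lists, with the list's median as a red bar. The list medians run from 0.37 for the aryl hydrocarbon receptor list to -0.24 for the immediate early factors. Without 4 h replicate 2 and 0 h replicate 3 the median of the aryl hydrocarbon receptor list was 0.25.

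The muscle program itself showed no call at 4 h. Of 31 measured sarcomere genes on the A arrays, 24 were positive with a median log2 change of 0.14, and 2 had an unadjusted p under 0.05, all higher, against 3.25% of all probe sets. Without 4 h replicate 2 and 0 h replicate 3, the arrays low in Myog, the median was 0.25. Myoz2, a Z-disc protein, had 610, 669 and 569 at 4 h against 336, 454 and 497 at 0 h, and its mean at 12 h was 1199. Smpx, a small stretch-sensitive protein, had 1346, 1308 and 1159 against 636, 681 and 1354, where 0 h replicate 3 was above all 4 h arrays. Myh3, the embryonic myosin heavy chain, had 6447, 4101 and 6184 at 4 h and 4929, 5018 and 5040 at 0 h, and the alpha skeletal actin Acta1 differed by -0.01 ± 0.14. Among 12 myogenic regulators 10 were positive with a median of 0.14, and none had an unadjusted p under 0.05. Pax7, the satellite cell factor, had 3078, 3464 and 2846 on the B arrays at 4 h and 2485, 2331 and 2189 at 0 h, without overlap and not past the threshold, while its A array probe set overlapped at 229 to 396 and 252 to 322. Of the Id and BMP target list, 5 of 13 were positive on the A arrays (median -0.13) and 2 of 3 on the B arrays, none passed, and without 4 h replicate 3 the A median was 0.0732. Within it the differentiation inhibitor Id1 had 2065, 2271 and 2720 at 4 h against 3897, 3522 and 3222 at 0 h (-0.59 ± 0.17, limma adjusted p = 0.617), and the brightest probe set of Id2 had 1183 to 1298 against 1794 to 2295, while its other probe sets overlapped. The 12 h means of Id1 and Id2 were 2152 and 1079.

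Among the other secreted and signalling genes, Vegfc, a growth factor of lymphatic vessels, had 1774, 2003 and 1522 at 4 h against 2388, 2554 and 2722 at 0 h on the B arrays, with a 12 h mean of 982, so that the 4 h level lay between its neighbours. Its A array probe set had the same sign (138, 161 and 114 against 182, 210 and 239), and another B probe set overlapped (375 to 624 and 405 to 554). Tgfb2 had 405, 342 and 415 at 4 h against 210, 276 and 224 at 0 h. Nfkb2, an NF-kB subunit, had 404, 441 and 448 against 661, 576 and 568. Ccng2, a cyclin raised when growth factors are scarce, had 1128, 1270 and 1347 against 751, 768 and 844 (log2 change 0.65 ± 0.15, limma adjusted p = 0.348). Slc6a9, a glycine transporter, had 641, 728 and 555 against 356, 411 and 320 (0.80 ± 0.15, limma adjusted p = 0.0905). None of these differences passed.

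The largest differences by size among non-overlapping probe sets were in dim ones. On the A arrays the highest was Uroc1, an enzyme of histidine breakdown, with 186, 191 and 195 at 4 h and 137, 48.5 and 54.9 at 0 h (log2 change 1.22 ± 0.34, limma adjusted p = 0.617). Tmsb10, which binds actin, had -1.16 in a probe set with 59.9 to 89.9 at 4 h and 166 to 199 at 0 h, but between -0.14 and 0.13 in 3 brighter probe sets. On the B arrays 0 of 13507 probe sets passed against 0 h in limma (0%), with 365 higher (2.7%) and 333 lower (2.47%) at an unadjusted p under 0.05. The highest was Hoxd13, a homeobox gene of the limb, with 217, 363 and 186 at 4 h and 73.5, 39.3 and 42.7 at 0 h (1.98 ± 0.54, limma adjusted p = 0.833), and the 0 h array with leg muscle as its source name held the 73.5. The lowest was Iqgap2, a scaffold protein, with 47.2, 60.4 and 55.0 against 326.5, 206 and 681 (-2.42 ± 0.67, limma adjusted p = 0.845). Csrnp1, an immediate early nuclear protein, had 195, 108 and 166 against 904, 1011 and 304 in one probe set (limma adjusted p = 0.860) and overlapped in its other.

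**Figure D5:**
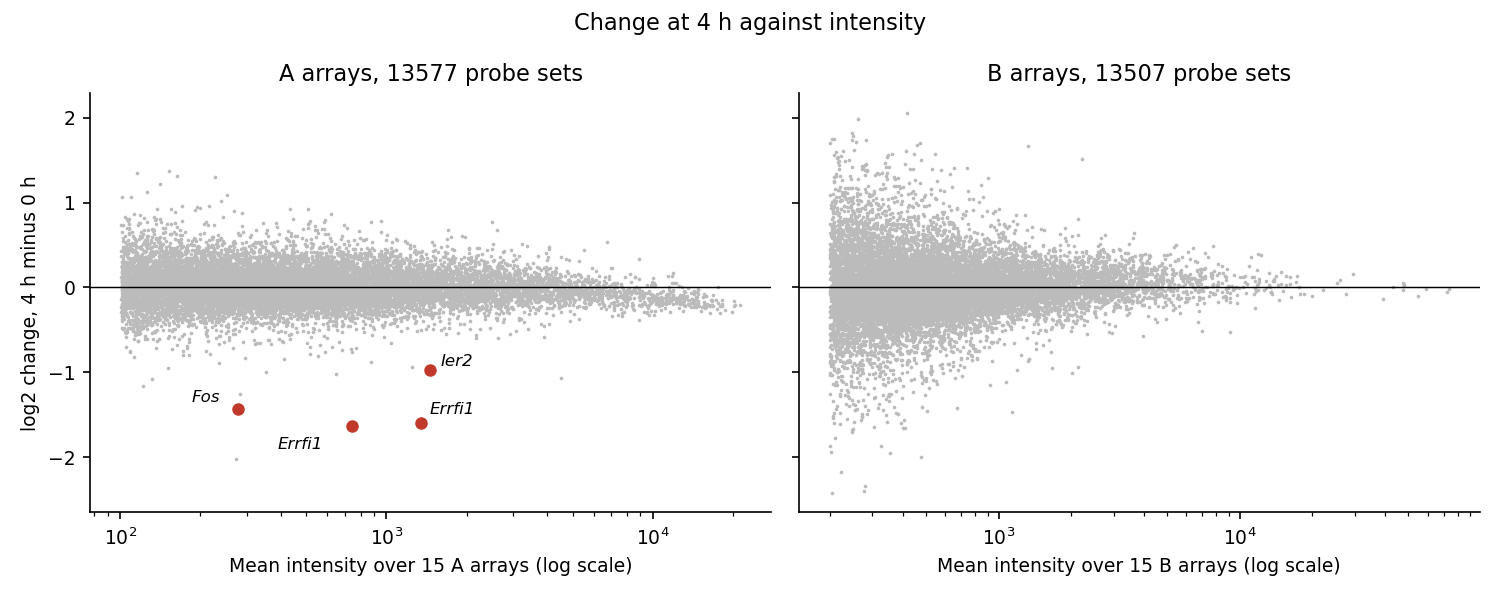
Log2 change at 4 h minus 0 h against mean intensity over the 15 arrays of a type (log scale), for 13577 A and 13507 B probe sets. The 4 probe sets past limma's adjusted threshold, of Errfi1, Fos and Ier2, are in red on the A type, and none is on the B type. The spread widens toward low intensity, and the brightest A probe sets lie slightly below 0.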

How the data were processed

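Affymetrix A and B arrays of cultured mouse extraocular muscle were compared at 4 h and 0 h, 3 arrays per group and type. The values deposited by the authors are linear intensities of probe sets, made with a standard Affymetrix protocol per the labels. The software, background correction and summary method are not stated there. The log2 of the deposited intensity plus 16 was fitted with limma 3.58.1 in R 4.3.3, with 1 mean per time over all 15 arrays of a type and a variance trend, and A and B arrays apart. The 64 control probe sets of each type and those below the 40th percentile of mean intensity (101 on A, 199.6 on B) were left out. P-values are two-sided and Benjamini-Hochberg adjusted over all probe sets tested, with a threshold of 0.05. The contrasts were 4 h minus 0 h, and 4 h minus the average of 0 h and 12 h.

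Symbols came from the platform annotation, updated to the RefSeq gene table (20364 A and 14499 B probe sets matched), and probe sets with several symbols were not used for names. In lists a gene took its brightest probe set of a type. The 48 lists held 976 genes, of which 755 were measured, and members and lists were chosen with earlier results of these data known. Named genes were those past the threshold, the 10 highest and 10 lowest non-overlapping A changes and the 5 and 5 on B at an unadjusted p under 0.05, and up to 4 members per list with the largest statistic. Acta1, Ahr, Asns, Atf3, Btg2, Cdk1, Dusp1, Dusp6, Egfr, Gsr, Gsta4, Jun, Nip7, Nr4a1, Pax7, Srxn1, Tiparp, Txnrd1 and the markers were named after their values were seen. The model was tested on simulated data. Fits were repeated with other scalings, pseudocounts, filters and variance models, a replicate block, a subset of times, and single arrays removed. Removing 4 h replicate 2 together with 0 h replicate 3, and array weights, were chosen after seeing the data. Figures used matplotlib 3.10.9.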

Additional observations from a re-analysis of the deposited data

How the results depend on the processing

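None of the called changes reversed its sign under any alternative run, but their number depended on the fit. The A arrays gave 4 calls at 4 h against 0 h. Median scaling left 2, and array weights gave 10 (2 higher, 8 lower). There were 0 by limma in the unfiltered table (1229 at an unadjusted p under 0.05), with a constant prior variance (784), with a replicate block (819), on the compared times alone (842), and with 4 h replicate 2 and 0 h replicate 3 both removed (827). Removing single arrays gave 0 to 5 calls: 0 on removing array 1 or 3 of 0 h, array 1 of 4 h or array 1 of 24 h, and 1 on removing array 3 of 4 h, array 1 of 12 h or any one of 48 h. Against the midpoint the 14 calls became 2 by median scaling, in the unfiltered table or with a constant prior variance, 5 with a replicate block, and 70 with array weights (45 higher, 25 lower). They became 0 by limma on the compared times alone (943 unadjusted) or with the pair removed (920 unadjusted). Removing single arrays gave 0 to 19: 0 for array 1 of 4 h, 2 for array 3 of 4 h, array 3 of 0 h or array 1 of 24 h, 3 for array 1 of 12 h, 4 for array 2 of 12 h, array 2 of 24 h or array 1 of 48 h, 5 for array 3 of 48 h, 6 for array 2 of 4 h or array 3 of 24 h, 8 for array 2 of 0 h and 9 for array 1 of 0 h. The B counts of 0 ran from 0 to 1, the 1 on removing array 2 of 48 h. Cyp1a1 kept its call in 23 of 26 alternatives, Cyp1b1 in 22, the brighter Errfi1 probe set in 16, the dimmer in 11 against 0 h and 10 against the midpoint, Gclm in 15, Hbegf in 9, Cirbp and Creld2 in 8, the Gclc probe sets in 8 and 10, Igfbp3 in 7 and Clasrp in 6 of 25. Fos kept it in 10 of 25 against 0 h and 7 against the midpoint, and Ier2 in 10 and 7 of 26. Quantile normalization ended the calls of Cirbp (adjusted p = 0.0558 in limma) and Igfbp3 (adjusted p = 0.0553 in limma). Same-numbered A arrays correlated at 0.238, -0.311 and -0.364 in their deviations, so the numbers were not taken to pair them. Across numbers, 4 h replicate 2 with 0 h replicate 3 had 0.467 on A and 0.157 on B. For 4 h replicate 3 with 0 h replicate 2 the values were 0.343 and 0.082. With the replicate block, which follows the given numbers, the adjusted p of Errfi1 was 0.0612 in limma. Pairing across numbers was not tested. A filter at the 60th percentile moved list medians to -0.36 for immediate early factors, 0.21 for the circadian clock, 0.0104 for neurofilaments and -0.15 for smooth muscle markers. With the pair removed the EGF family was at -0.15 and ATF4 and CHOP genes at 0.0421. Quantile normalization put ribosomal proteins at 4.6e-04, and array weights put cell cycle inhibitors at 0.15. Removing single arrays, medians ran from -0.13 to 0.20 for FGF, PDGF and VEGF ligands, -0.23 to 0.0732 for Id and BMP targets, 0.0704 to 0.35 for Wnt, 0.0600 to 0.20 for cell cycle inhibitors, -0.0267 to 0.21 for the clock, -0.0784 to 0.0780 for extracellular matrix and -0.63 to -0.0916 for neurofilaments. Where fewer arrays entered a fit it had fewer samples, and otherwise the cause was not tested. Changes of dim probe sets are understated by the added 16.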
